A study of Drosophila melanogaster with 5 samples.

Results

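The genes described here start autophagy and supply membrane to it: Atg1, Atg13, Atg17 and Atg101, which encode the Atg1 kinase complex, and Atg9, Atg2, Atg18a and Atg18b. They were chosen by function, as the probe sets whose only annotated gene symbol is one of these names. All 8 genes had 1 such probe set, out of 11982 genes with a probe set of 1 symbol on the array, and all 8 passed the filter on dim probe sets. RNA came from salivary glands of Drosophila melanogaster 14 h after puparium formation and was hybridised to 5 Affymetrix 1-colour arrays. For 3 arrays the animals carried P{hs-Fkh111}, a transgene that places fork head (fkh), a forkhead transcription factor of the gland, under a heat shock promoter, which is not restricted to the gland. The other 2 arrays came from w1118, a white-eyed laboratory strain without a stated transgene, written w1118(3) in the titles. Animals of both groups were raised at 25 °C and given the same 30 min at 37 °C, starting 9.5 h after puparium formation, and all glands were taken at 14 h. The series asks which genes respond to Fork head at this stage, and the comparison below is that of the arrays labelled Fkh with the w1118 arrays.

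Autophagy encloses cytoplasm in a double membrane and delivers it to the lysosome. The kinase Atg1, held with its partners Atg13, Atg17 and Atg101, receives signals from the TOR kinase and starts the process. Atg9 is a membrane protein carried in small vesicles that seed the new membrane, Atg2 is a lipid transfer protein that feeds it, and the Atg18 proteins bind the lipid PI3P and recruit Atg2. In Drosophila the larval salivary gland is removed during metamorphosis after a pulse of the steroid ecdysone, and both autophagy and caspases take part in its breakdown.

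Of the 8 genes, Atg1 and Atg18b rose in the arrays labelled Fkh, Atg13, Atg9 and Atg18a fell, and Atg17, Atg101 and Atg2 did not pass the test. A gene was called when the Benjamini-Hochberg adjusted p of limma, over all probe sets kept, lay under 0.05. With the same rule 21.5% of the 8298 genes tested were called higher and 19.3% lower, against 2 and 3 of the 8 members. Changes of the members' size were common on these arrays: 22.2% of the genes tested had a log2 difference at least as large in size as that of Atg13, and 27.2% one at least as large as that of Atg1. The median log2 difference was -0.41 over the members and -0.010 over all genes tested. The members thus moved in both directions. In the kinase complex 1 gene of 4 was called higher and 1 lower. Of the 4 membrane supply genes, 1 was called higher and 2 lower.

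Several facts about the arrays bear on each value below. The fkh probe set went against the labels, at 41.5, 47.0 and 58.3 in the arrays labelled Fkh and 130 and 120.3 in w1118 (log2 difference -1.13, SE 0.17, limma adjusted p = 0.0026). Whether it lies within the part of fkh carried by the transgene is not known here, so the directions given for the members are those of the labels. The glands carried their own marker genes in both groups, with summed intensities over 8 gland genes of 41219 to 42242 in the arrays labelled Fkh and 12235 and 15744 in w1118. Of these 8 genes 6 were called higher and 1, Sgs7, lower (log2 difference -0.58), while Sgs8 was not called (-0.64). Summed intensities of markers of other tissues were lower in the arrays labelled Fkh: 5 fat body genes summed to 11584 to 12987 against 21637 and 22798, 8 haemocyte genes to 660.3 to 933 against 1542 and 1548, and 5 tracheal and neuronal genes to 1024 to 1197 against 2167 and 2653. Of these lists 3, 2 and 4 genes were called lower and 0 higher. In the last list verm (mean 307 against 953) and serp (659 against 1180) were the brightest. The neuronal genes elav (53.0 against 166) and nSyb (28.0 against 58.5) were dimmer, and brp (45.0 against 51.4) was not called. The haemocyte difference lay mostly in NimC4 (192, 226 and 250 against 953 and 872), and without it the sum was 435 to 683 in the arrays labelled Fkh and 589 and 676 in w1118, which overlap. Muscle markers up and Mlc2 and the haemocyte markers Hml and eater stayed under 50 in every array. The 3' to 5' ratio of the actin control probe sets, which reflects how intact and how fully labelled the RNA was, came to 4.94, 4.30 and 3.37 in the arrays labelled Fkh and to 2.47 and 2.54 in w1118. The eIF-4a ratio was also higher in each array labelled Fkh (2.35, 1.81 and 1.68 against 1.53 and 1.55), whereas the GAPDH ratio did not separate the groups (1.56, 1.14 and 1.11 against 1.16 and 1.14). The part of these differences in the results below was not tested. Because the RNA is that of whole dissected tissue, fewer cells of a type and less RNA per cell cannot be told apart.

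Atg1 (CG10967), the protein kinase of the complex, was higher in the arrays labelled Fkh. Its intensity was 907, 859.6 and 558 in Fkh arrays 1, 2 and 3 and 369 and 439 in the w1118 arrays. All 3 lay above both controls, but array 3 was much nearer to them than arrays 1 and 2. The means were 775 ± 189 (SD, n = 3) and 404 ± 49.6 (SD, n = 2), and the log2 difference was 0.89 (SE 0.24, limma adjusted p = 0.027). Because intensities were transformed as log2(intensity + 16), these differences slightly understate the ratio of intensities. The order of the 5 arrays by Atg1 was the same as their order by the actin and by the eIF-4a 3' to 5' ratio, from Fkh array 1 as the highest to w1118 array 1 as the lowest. It was not the order by the GAPDH ratio, which was lowest in Fkh array 3. Prp16 and Hmu, the genes nearest to Atg1 in profile (below), had the same order of arrays as Atg1. How many of all genes tested share that order was not counted. The part of RNA quality in the result was not tested. The call needed most of the arrays: its adjusted p was 0.079 without Fkh array 1, 0.079 without Fkh array 2, 0.15 without w1118 array 1, 0.073 without w1118 array 2 and 0.0041 without Fkh array 3.

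Atg13 (CG7331), the regulatory partner through which TOR acts on the kinase, fell. Its probe set gave 2869, 2806 and 2595 in the arrays labelled Fkh and 5653 and 5633 in w1118. The groups were far apart compared with the spread inside them, and on the log2 scale no other member varied as little within either group. The means were 2757 ± 144 (SD, n = 3) and 5643 ± 14.3 (SD, n = 2), and their log2 difference was -1.03 (SE 0.14, limma adjusted p = 0.0019). On the linear scale the w1118 mean was 2.05 times that of the arrays labelled Fkh. The call was made in each fit with 1 array left out.

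Atg17 (CG1347), the scaffold of the complex and the fly counterpart of mammalian FIP200, was measured at 530.3, 646 and 427 in the arrays labelled Fkh and at 664 and 714 in w1118. All 3 arrays lay below both controls, Fkh array 2 only slightly. The log2 difference was -0.38, with a 95% interval from -0.86 to 0.11 (limma adjusted p = 0.19). The data therefore allow anything from a fall to 0.551 of the control level to a small rise. With quantile normalization of the arrays the gene was called (-0.54, limma adjusted p = 0.045).

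Atg101 (CG7053), which stabilises Atg13 in mammals, showed no direction. Its intensities were 695, 671 and 502 in the arrays labelled Fkh and 621 and 612 in w1118. Fkh arrays 1 and 2 lay above the controls and Fkh array 3 below, so the groups overlapped. The log2 difference of 0.00040 had a 95% interval from -0.45 to 0.45 (limma adjusted p = 1.0), which still holds changes of up to 1.36-fold. It was the only member whose groups overlapped. Over all genes tested, the 3 arrays labelled Fkh lay above both controls for 32.5% and below both for 32.8%, against 2 and 5 of the members.

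**Figure D1:**
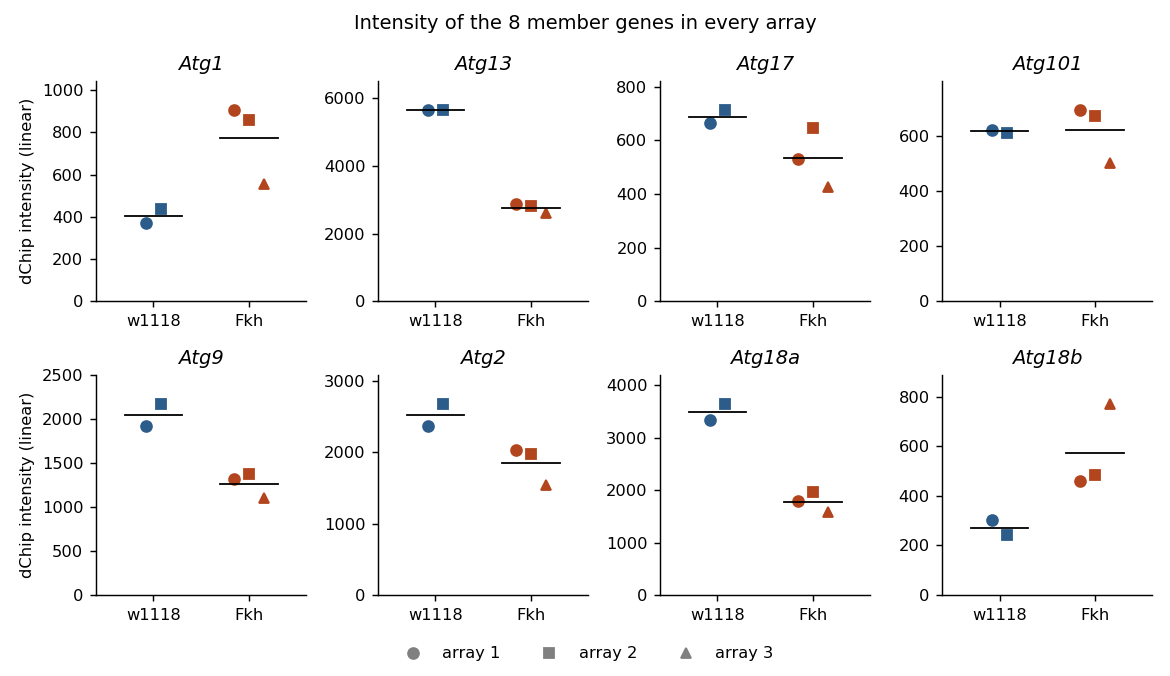
Intensity (dChip, linear scale, axis from 0) of the 8 genes in the 2 w1118 arrays (blue) and the 3 arrays labelled Fkh (red). Each symbol is an array and each line a group mean; Atg13 went from 5643 to 2757 with little spread, whereas Fkh array 3 stood apart from the other arrays of its group for Atg1 (558) and Atg18b (772).

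Of the kinase complex, the Atg1 probe set was thus called higher and the Atg13 probe set lower. Such calls were common, at 21.5% and 19.3% of all genes tested. The log2 ratio of the Atg1 to the Atg13 probe set within an array sets both values against the same array, so that most of a scaling of the array cancels. It was -1.64, -1.69 and -2.19 in the arrays labelled Fkh and -3.88 and -3.63 in w1118. The groups did not overlap, and their means differed by 1.92 on the log2 scale, a 3.78-fold change of the ratio. An exact permutation test over the arrays, with the smaller tail doubled, gave a two-sided p of 0.2. This is the smallest value that a doubled tail allows with 3 against 2 arrays. Probe sets differ in brightness for the same amount of RNA, so the ratio says nothing on the proportion of the subunits.

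Atg9 (CG3615), the membrane protein that cycles on vesicles, fell. It was measured at 1317, 1380.2 and 1104 in the arrays labelled Fkh and at 1922 and 2177 in w1118, with no overlap. The means were 1267 ± 145 (SD, n = 3) and 2049 ± 180.2 (SD, n = 2), and the log2 difference was -0.69 (SE 0.17, limma adjusted p = 0.018). The log2 difference was -0.78 without w1118 array 1 and -0.60 without w1118 array 2, and the gene was not called in either fit. It stayed called with an array labelled Fkh left out, in part narrowly. The limma adjusted p was 0.048 without Fkh array 1, 0.036 without Fkh array 2 and 0.023 without Fkh array 3.

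Atg2 (CG1241), the lipid transfer protein, was lower by a smaller margin and was not called. Its values were 2034, 1978 and 1544 in the arrays labelled Fkh and 2375 and 2684 in w1118. Each array labelled Fkh lay below both controls. The log2 difference was -0.45 with a 95% interval from -0.89 to -0.019, which ends just short of 0, and the limma p of 0.043 became 0.091 after adjustment. With quantile normalization it was called (-0.55, limma adjusted p = 0.032).

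Atg18a (CG7986), a PI3P-binding beta-propeller protein, fell nearly as much as Atg13. Its intensities were 1795, 1962 and 1584 in the arrays labelled Fkh and 3336 and 3648 in w1118. The highest array labelled Fkh was well below the lower control. The means were 1780.2 ± 189 (SD, n = 3) and 3492 ± 221 (SD, n = 2), with a log2 difference of -0.97 (SE 0.16, limma adjusted p = 0.0040). Like Atg13, it was called in each fit with 1 array left out. The suffix of its probe set, s_at, marks probes shared by several transcripts, although the annotation gives it 1 gene.

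Atg18b (CG8678), the paralogue of Atg18a, moved the other way. It was measured at 459.7, 485 and 772 in the arrays labelled Fkh and at 301 and 241 in w1118. All 3 were above both controls, and here Fkh array 3 was the farthest from them. The means were 572 ± 173 (SD, n = 3) and 271 ± 43.1 (SD, n = 2), a log2 difference of 1.0 (SE 0.26, limma adjusted p = 0.021). Without w1118 array 1 the adjusted p was 0.059, without w1118 array 2 it was 0.12, and with quantile normalization 0.063.

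**Figure D2:**
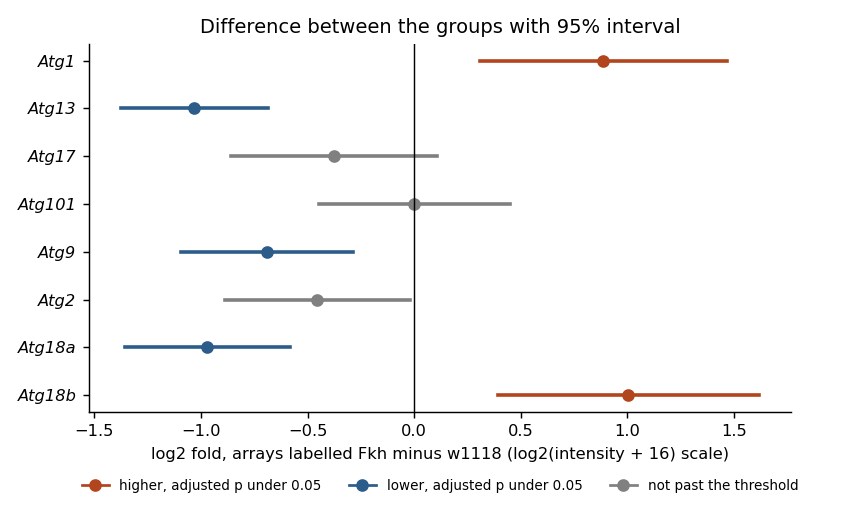
Log2 difference of each gene (point) with its 95% interval (bar) from limma, arrays labelled Fkh minus w1118. Atg1 and Atg18b lie right of 0 at 0.89 and 1.0, Atg13, Atg18a and Atg9 left of it at -1.03, -0.97 and -0.69, and grey marks the 3 genes that did not pass the threshold.

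The ratio of the paralogues restates their opposite changes in a single value per array. The log2 ratio of the Atg18a to the Atg18b probe set was 1.93, 1.98 and 1.02 in the arrays labelled Fkh and 3.40 and 3.84 in w1118. The means differed by -1.97 on the log2 scale, a 3.93-fold change, and every array labelled Fkh lay below both controls. The exact permutation p was again 0.2, two-sided with the smaller tail doubled, the smallest that this form of the test can give.

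**Figure D3:**
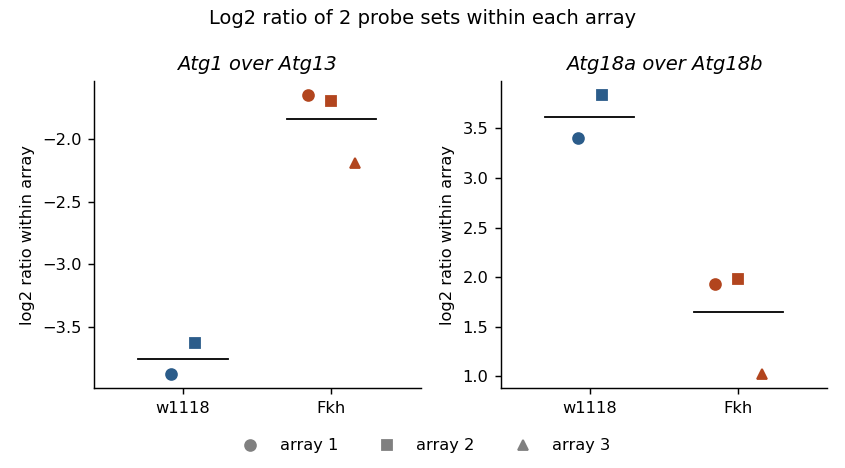
Log2 ratio of 2 probe sets within each array, for Atg1 over Atg13 (left) and Atg18a over Atg18b (right); symbols are arrays and lines group means. The ratio of Atg1 to Atg13 was higher by 1.92 and that of Atg18a to Atg18b changed by -1.97 in the arrays labelled Fkh, with no overlap, and the axes do not start at 0 because the values are logarithms.

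The members differed in how much of their change rested on a single array. Fkh array 3 lay below both other arrays of its group for 7 of the 8 members and above both for Atg18b. Over all genes tested it lay below both for 47.3% and above both for 32.6%. For Atg1 the log2 difference from the controls was 1.10 in the mean of Fkh arrays 1 and 2 and 0.45 in array 3, and for Atg18b it was 0.77 and 1.47. For Atg13 the same values were -0.99 and -1.12 and for Atg18a -0.89 and -1.13, so that these falls were about as large in either. Fkh arrays 1 and 2 also shared a lower signal of the bioB hybridisation control, 330.5 and 338 against 814 in array 3 and 669 and 652 in w1118. With array 3 as the only Fkh array, 1 member (Atg18b) was called higher and 3 (Atg13, Atg9 and Atg18a) lower, beside 12.5% and 12.8% of the genes tested in that fit. Array 3 is assumed there to vary like the w1118 arrays, whose spread, with 1 residual degree of freedom, is the only one the fit has besides that shared across probe sets.

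The fewest members were called when a control array was left out. Without w1118 array 1, or without w1118 array 2, 0 members were called higher, and Atg13 and Atg18a were the 2 called lower. At an unadjusted threshold of 0.05, limma with all 5 arrays gave 2 members higher and 4 lower, with Atg2 added, beside 26.1% and 24.6% of all genes tested. In the fits with 1 control the share of all genes called was lower as well, at 15.3% and 16.2% higher and 11.4% and 12.0% lower. The single control is assumed there to vary like the arrays of the other group.

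**Figure D4:**
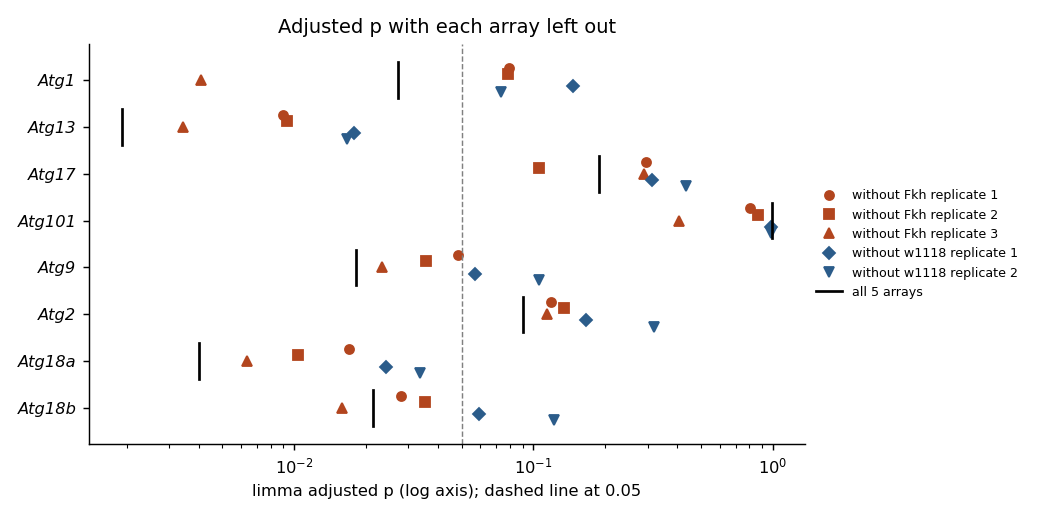
Limma adjusted p (log axis) of each gene with all 5 arrays (black bar) and with each array left out (symbols, red for an array labelled Fkh and blue for a w1118 array). Atg13 and Atg18a stay left of the dashed line at 0.05 in each fit, whereas Atg9 and Atg18b cross it without either control and Atg1 in all fits but the one without Fkh array 3 (0.0041).

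Atg1 and Atg18b, the members that rose, are also the ones whose genes overlap in the genome with a protein-coding gene that rose. In the RefSeq gene table (Release 6 plus ISO1 MT) the interval of CG42709 overlaps that of Atg1, and CG42709 rose from 1594 to 3739 (log2 difference 1.22, limma adjusted p = 0.0015). The interval of CG8679 overlaps that of Atg18b, and CG8679 rose from 74.1 to 181 (1.12, limma adjusted p = 0.0035). Over all genes tested 21.5% were called higher. Overlaps were looked up for the members only, so how often overlapping genes rise together was not counted. Atg18b also overlaps the small nuclear RNA gene snRNA:U4:39B, which was not among the genes tested. Atg101 overlaps S6KL, a kinase gene, at 187 and 195 (-0.055, limma adjusted p = 0.78), and neither member of that pair was called. The other 5 members overlap no gene of the table. Which transcripts each probe set detects was not tested.

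The profiles of the members over the 5 arrays were compared by Euclidean distance between log2 values, after subtraction of the mean of each gene. This is a description over 5 arrays that share their group difference. The nearest pair of members was Atg13 and Atg18a at 0.19. Of the 8297 other genes tested, 32 lay nearer to Atg13, for which the median distance was 1.25. Atg17 and Atg2 followed at 0.25, with 85 genes nearer to Atg17, and Atg9 and Atg2 at 0.28, with 165 nearer to Atg9. The farthest pair was Atg13 and Atg18b, at 2.34, with 7195 genes nearer to Atg13. Among all genes tested, those nearest to Atg13 were GILT3 (0.098), of a family of lysosomal thiol reductases, and CG8788 (0.11). Prp16 (0.070), an RNA helicase of the spliceosome in yeast, and Hmu (0.11) were nearest to Atg1, and CG7656 (0.053) and ReepB (0.055) to Atg18a. For Atg18b the nearest genes were much less close: mag (0.22), a lipase, and Polr2H (0.24), an RNA polymerase subunit. ImpE2 (0.065) and Root (0.082) were nearest to Atg9, corto (0.036) and CG13605 (0.046) to Atg2, CG15021 (0.086) and CG34227 (0.089) to Atg17, and Ref1 (0.082) and Bsg (0.089) to Atg101.

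The other genes of the pathway were read in 5 lists, of which 43 genes were tested, and 7 rose and 5 fell. Their median log2 difference was 0.069. The counts lie beside 21.5% and 19.3% of all genes. The next step of autophagy attaches Atg8 and Atg12 to lipid and protein, and 1 of its 10 genes rose and 2 fell (median log2 difference -0.24). Atg16, which positions the conjugation enzyme on the membrane, rose by 0.90, from 247 ± 12.8 (SD, n = 2) to 478 ± 68.3 (SD, n = 3) (limma adjusted p = 0.0070). Atg4b, a protease that processes Atg8, fell from 4062 ± 498 (SD, n = 2) to 1493 ± 405 (SD, n = 3) (-1.47, limma adjusted p = 0.0053), and Atg5 was the other gene that fell (-0.60, limma adjusted p = 0.035). The call of Atg5 was made in 1 of the 5 fits with an array left out, the one without Fkh array 3, where its adjusted p was 0.035, and the highest was 0.15 without w1118 array 1.

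In the Vps34 lipid kinase complex, which makes the PI3P that Atg18 proteins bind, the changes were also split. Of 6 genes tested, ref(2)P included, 3 rose and 2 fell. Atg6, the fly Beclin, rose by 1.07, from 338 ± 47.1 (SD, n = 2) to 733 ± 139 (SD, n = 3) (limma adjusted p = 0.0076). Without w1118 array 2 its adjusted p was 0.057. The lipid kinase Pi3K59F itself rose by 0.48 (limma adjusted p = 0.042), a call made in none of the 5 fits with an array left out, with adjusted p values from 0.051 without Fkh array 3 to 0.20 without w1118 array 1. Atg14, which directs the complex to autophagy, fell from 934 ± 18.5 (SD, n = 2) to 558 ± 66.1 (SD, n = 3) (-0.73, limma adjusted p = 0.013). Without w1118 arrays 1 and 2 in turn this became 0.073 and 0.060. Vps15, its regulatory kinase, fell by 0.67 (limma adjusted p = 0.040), and this call was made in 1 of those fits, without Fkh array 3 (0.017). The adjusted p of Vps15 was highest, at 0.21, without w1118 array 2. The receptor ref(2)P, which is itself degraded by autophagy as a protein, rose from 3657 ± 853 (SD, n = 2) to 6642 ± 63.6 (SD, n = 3) (0.88, limma adjusted p = 0.0100). Without w1118 array 1 the adjusted p of ref(2)P was 0.064.

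Upstream of the Atg1 complex lie the sensors of nutrients and energy, of which 11 genes were tested, and 2 rose and 1 fell. Tsc1, which with gig restrains TOR signalling, rose from 282 and 207 in w1118 to 7490, 7555 and 5429 in the arrays labelled Fkh, a log2 difference of 4.72 with an interval from 4.19 to 5.24 (limma adjusted p = 2.0e-05). The call was made in each fit with an array left out. Its partner gig was at 225 and 300 on average and was not called (-0.40, limma adjusted p = 0.18), and neither was the TOR kinase gene mTor, at 246 and 177 (0.43, limma adjusted p = 0.094). AMPKalpha, the catalytic subunit of the energy sensor AMPK, rose by 0.70 from 454 ± 30.6 (SD, n = 2) to 745 ± 24.0 (SD, n = 3) (limma adjusted p = 0.0098), with 0.066 without w1118 array 2. The transcription factor gene foxo fell from 92.5 to 56.4 (-0.58, limma adjusted p = 0.024), with adjusted p values of 0.058, 0.072, 0.057 and 0.13 without Fkh array 1, Fkh array 2, w1118 array 1 and w1118 array 2. The alc probe set lay under the filter.

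In the later steps 1 gene passed the test. Of 9 genes for fusion of the autophagosome with the lysosome, 1 rose: lt, a subunit of the HOPS tethering complex, from 274 and 197 in w1118 to 886, 905 and 876 in the arrays labelled Fkh (1.86, interval 1.44 to 2.29, limma adjusted p = 0.00037). The other 8 had log2 differences from -0.48 (Vamp7) to 0.52 (Vps11). Of 7 genes of vesicle traffic linked to Atg9, 0 were called by limma, with Chc (-0.53) and AP-2alpha (0.51) the 2 at an unadjusted p under 0.05, which 26.1% of all genes tested reached as higher and 24.6% as lower. Atg8a, the ubiquitin-like protein on the autophagosome, was at 7905 ± 709 (SD, n = 3) and 7745 ± 346 (SD, n = 2), a log2 difference of 0.026 with an interval from -0.35 to 0.40 (limma adjusted p = 0.91).

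**Figure D5:**
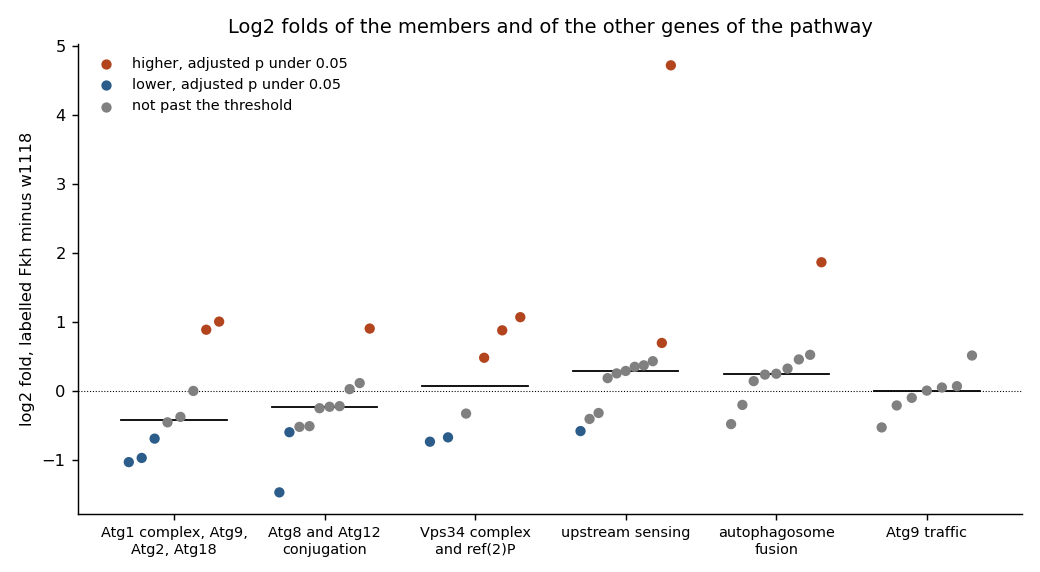
Log2 difference (arrays labelled Fkh minus w1118) of the 8 members and of the tested genes of 5 other lists; points are genes, coloured by limma call, and lines are list medians. The members spread from -1.03 to 1.0 around a median of -0.41, and the largest value of the plot is Tsc1 at 4.72.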

How the data were processed

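The deposited intensity values, 1 per probe set, were made by the authors with dChip, which scaled the arrays to 1 baseline array whose median was 134, as the series' design text states. The sources used here give neither its version nor its expression model. Values run from 0 to between 15488 and 16327. The 183 control probe sets were left out, and names come from the platform annotation (13647 probe sets with 1 symbol, 402 with several, 4720 with none). Intensities were transformed as log2(intensity + 16), and 11261 probe sets with a mean above the 40th percentile entered a single limma fit (version 3.58.1, R 4.3.3) with lmFit and eBayes, a two-sided test whose residual degrees of freedom were 3 and prior ones 3.63. P-values were adjusted by Benjamini-Hochberg over these probe sets. Each gene is its brightest probe set with 1 symbol. The procedure was tested on simulated data.

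The members, lists and tests were chosen with earlier results of these data known, the genes by function. The genes named are the members, fkh, the called genes of each list with the smallest p in each direction, and the nearest profiles (2 per member). The other list genes, the overlapping genes and Atg8a were named with their values already known. TOR is listed as mTor. Some list genes, among them Rheb, Thor, Syx17, Rab7, Rab1 and Rab11, were not analysed here. The submitters call the arrays of a group biological replicates, and the number of arrays limits the precision. Sequences of the genes were not used here. Alternatives covered the constant, filter, scaling, variance model, array weights, replicate numbers, probe set per gene and arrays used. Python 3.11.15 with matplotlib 3.10.9 drew the figures.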

Additional observations from a re-analysis of the deposited data

How the results depend on the processing

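Atg13 and Atg18a were called lower under each of 15 alternatives, with log2 differences from -1.18 to -0.97 and from -1.13 to -0.89. Atg9 kept its direction and was called under 13 of 15 (-0.88 to -0.60), Atg18b under 12 (0.77 to 1.47) and Atg1 under 10 (0.45 to 1.10). Atg101, near 0 with all arrays, became negative with quantile normalization (-0.16), in Fkh array 3 alone (-0.29) and without Fkh array 1, Fkh array 2 or w1118 array 2, and ran from -0.084 to 0.14 over the fits without 1 array. It was called in none. Quantile normalization called 1 member higher and 5 lower, beside 20.2% and 22.4% of all genes tested. With each array left out the number of members called higher ran from 0 to 2 and lower from 2 to 3. In Fkh array 3 alone against both w1118 arrays 1 member was called higher, 2 other pathway genes were, and 1337 probe sets were higher and 1397 lower, against 2328 and 2104 with all arrays. That fit has 1 residual degree of freedom, from the controls, and assumes that array 3 varies like them. Leaving out arrays gave 1598 to 2581 probe sets higher and 1222 to 2309 lower, and 4 to 9 other pathway genes higher and 1 to 6 lower. Without a filter on dim probe sets 2 other pathway genes were called lower. Fits with fewer arrays have fewer residual degrees of freedom. The fit without Fkh array 3, one of them, called more probe sets than the fit with all arrays (2581 higher and 2309 lower). The cause of these shifts was not tested.

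Deviations from the group means correlated at 0.077 between the arrays numbered 1 and at -0.11 between those numbered 2. With 2 controls, the deviations of one mirror those of the other, so these values are not separate checks. They are weak evidence on pairing, and the numbers were not taken as pairs. A fit with the replicate block called 2350 probe sets higher and 2019 lower and the same 2 and 3 members. Number 3 exists only among the arrays labelled Fkh, so its block takes up that array. The log2 differences of the members were therefore those without Fkh array 3, such as 1.10 for Atg1 and -0.99 for Atg13. For the size of the differences these 2 alternatives are not separate checks. Both within-array ratios kept their direction under each alternative run, from 1.79 to 2.09 for Atg1 over Atg13 and from -2.19 to -1.66 for Atg18a over Atg18b. Intervals rest on 3 residual degrees of freedom plus the spread shared across probe sets.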
